A study of Mus musculus with 4 samples.

Results

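The 10 genes described here belong to the Notch pathway. They are 3 receptors (*Notch1*, *Notch2* and *Notch3*), 2 ligands (*Jag1* and *Dll4*) and 5 target genes of the Hes and Hey families (*Hes1*, *Hes5*, *Hey1*, *Hey2* and *Heyl*). They were chosen by name, as the rows of the deposited gene lists with these symbols, and make up 10 of 33456 genes listed. RNA of single cells was sequenced from dissociated dorsal root ganglia (DRG) of female C57BL/6 mice of 8 to 12 weeks. There were 4 libraries, 2 from uninjured ganglia (control) and 2 from ganglia taken 3 days after sciatic nerve crush (injury). The labels name the L4 ganglion and the methods name L4 and L5, the cells were sorted for viability before capture, and no engineered allele is named for these mice. In each condition 1 library carries the replicate number 2 in its label, and the unnumbered one is named replicate 1 here. The methods describe them as independent experiments, each of cells pooled from several mice, and name the contralateral ganglia as uninjured controls where needed.

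In the Notch pathway, a ligand on one cell binds a receptor on its neighbour, the receptor is cut, and its inner part moves to the nucleus, where it joins RBPJ and switches on genes of the Hes and Hey families. These encode repressors of transcription that hold back differentiation programs. The pathway is known for keeping glial precursors in the neural crest lineage, for setting arterial identity in endothelium and for maintaining the contractile cells around vessels.

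A unique molecular identifier (UMI) marks each captured RNA molecule, and a barcode marks each droplet. The 4 libraries held 1294 to 2509 barcodes each, with totals of 5585909 to 11210875 UMIs, and shared 1 to 6 barcode sequences per pair of libraries. After the limits of the methods (between 600 and 15000 UMIs, between 500 and 4000 genes, and under 10% of UMIs from mitochondrial genes) 6095 cells were kept, of which 4805 were assigned to a cell type by gates of marker genes that included no member. The 10 members gave 12193 UMIs in the kept cells. Satellite glial cells (SGC), the glia that wrap the cell bodies of sensory neurons, numbered 1231, and their share of the kept cells ran from 3.61% in control replicate 1 to 30.2% in control replicate 2, with 22.2% and 23.3% in the injury libraries. The difference between conditions was 5.86 percentage points (exact permutation test, two-sided, p = 1, where 2 libraries against 2 cannot go below 0.33). Pericytes and smooth muscle cells, the contractile cells of small and larger vessels, came largely from the replicates numbered 1, with 66, 8, 89 and 5 pericytes and 79, 27, 85 and 9 smooth muscle cells (control replicate 1, control replicate 2, injury replicate 1, injury replicate 2, the order used throughout). Genes outside the gates checked the types. *Kcnj10* (the SGC potassium channel Kir4.1) was at 209 CPM in SGC against 86.8 in the next type, *Pecam1* at 476 CPM in endothelial cells against 39.7, and *Pdgfrb* at 360 CPM in pericytes against 144. CPM are the UMIs of a gene scaled to a common total of summed UMIs. They are given per library and type unless pooled cells are named. The genes outside the gates are given here pooled over the cells of all libraries. *Des*, a muscle filament gene, was higher in pericytes (635 CPM) than in smooth muscle cells (418 CPM), against the direction of the gates, whereas *Pdgfrb* followed them. *Cdh19*, used as an SGC marker, was at 123 CPM in SGC and at 469 CPM in nonmyelinating Schwann cells.

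Each member was asked in which cell types of the ganglion it was expressed. Raw UMIs were summed per library and type and fitted with edgeR's quasi-likelihood method, blocked by library. Each type was set against the mean of the fitted log levels of the other types, which types near 0 pull down. Benjamini-Hochberg adjustment covered the 7715 genes tested. Calls needed a log2 fold of at least 2 besides an adjusted p below 0.05. All 10 members passed the filter on low counts, which each passed through the types where it is high. Of the 10, 6 were called higher in SGC, where 12.0% of all genes tested were. Corresponding numbers were 5 in smooth muscle cells (11.2% of all genes), 4 in pericytes (10.4%), 4 in endothelial cells (12.9%), 2 in fibroblasts (14.5%) and 1 in myelinating Schwann cells (9.99%). No member was called lower in these types except *Notch2* in endothelial cells, where 1.11% of all genes were. Members at or near 0 UMIs in a type often had no usable error, as *Dll4* in SGC (log2 fold -1.29, SE 3083). Some members with more UMIs in the type had none either. Examples are *Notch1* in fibroblasts (35 UMIs, log2 fold -1.25, SE 360) and *Hes1* in macrophages (236 UMIs, -0.33, SE 5.51). Each SE was worked out from the fold and the test statistic, so it can be very large where that statistic is near 0. Where the error is not usable, the lack of a lower call says nothing about the member. The members were chosen with earlier results known and passed the filter through the types where they are high, so these counts describe them and are not set against the background as evidence. Where a gene is at 0 in some types its fitted fold depends on the model. Levels and ratios of mean CPM are therefore given with the adjusted p of the type against the mean of the others. Outside the pairs tested as such, that p does not test a ratio between named types. A fitted fold against the other types is given only where a call fell short of or lay near the limit.

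**Figure D1:**
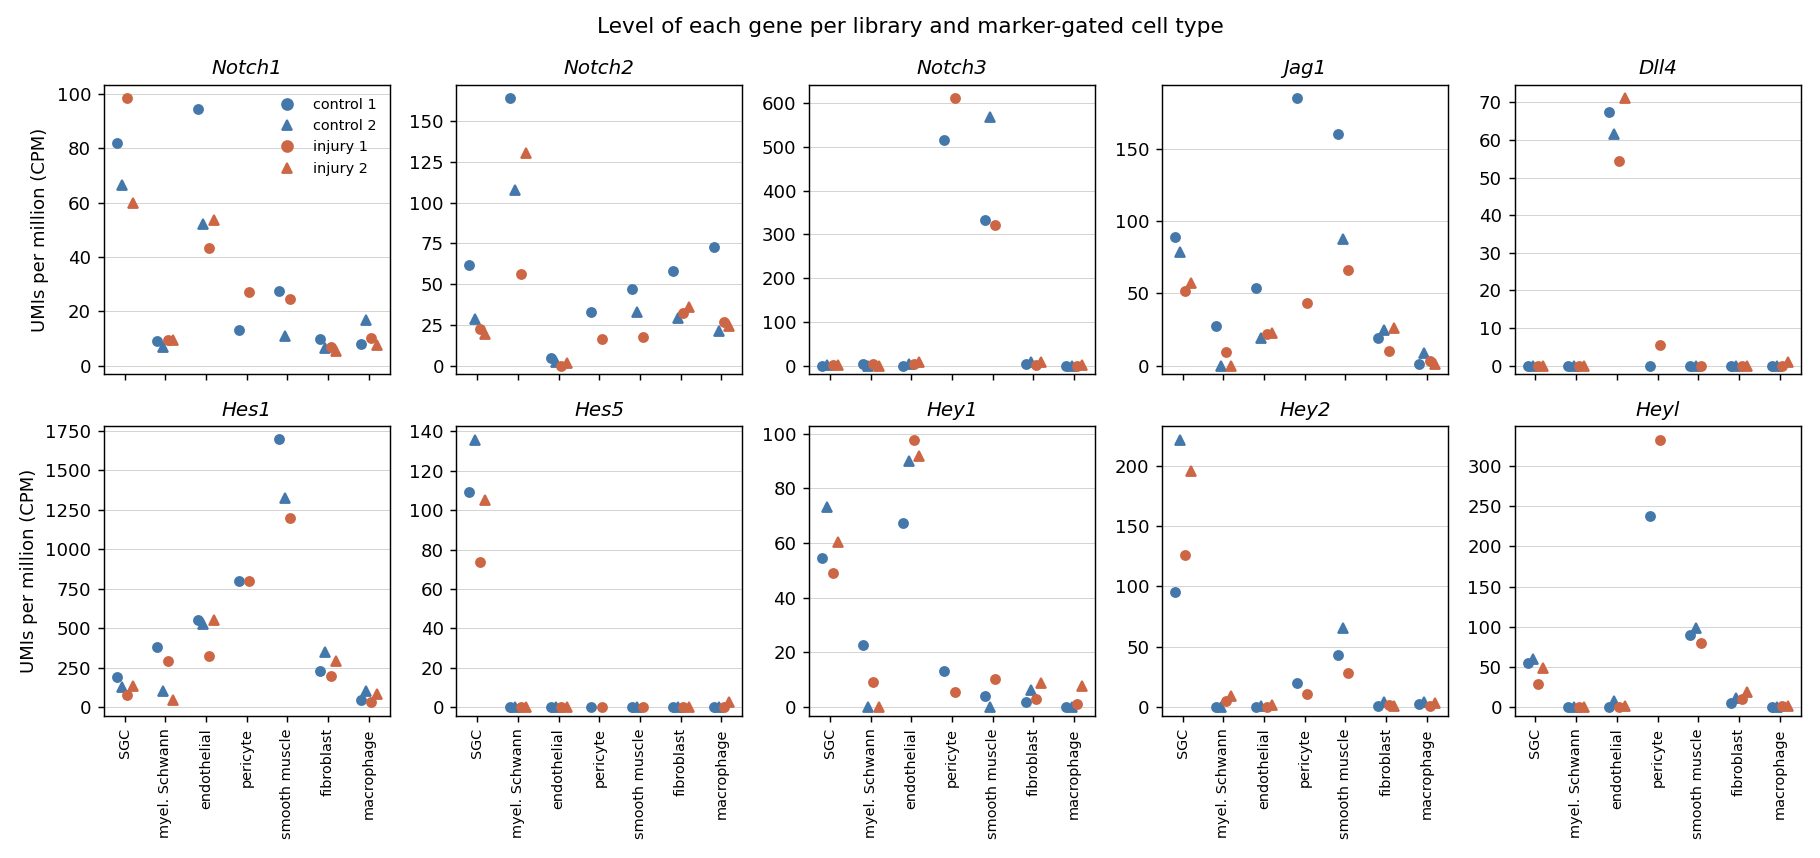
Level of each member in CPM (linear axis) in 7 gated cell types, 1 point per library with at least 10 cells, coloured by condition and shaped by replicate number. *Hes5* is above 70 CPM in all 4 SGC libraries and at or near 0 elsewhere, *Dll4* is above 50 CPM in all 4 endothelial libraries, and *Notch3* is above 300 CPM in pericytes and smooth muscle cells.

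In SGC the called members were the receptor *Notch1*, the ligand *Jag1* and the targets *Hes5*, *Hey1*, *Hey2* and *Heyl*. *Hes5*, a target known from neural progenitors and glia (chr4:154960923-154962371 in mm10), was at 109 and 136 CPM in the SGC of the control libraries, replicate 1 first, and at 73.9 and 105 CPM in those of the injury libraries. Of its 635 UMIs in the kept cells, 575 lay in SGC, 57 in cells that passed no gate and 3 in macrophages, and the other types held 0. Its level in SGC was at least 172.8-fold higher than in fibroblasts and at least 73.1-fold higher than in endothelial cells, with the level of a type at 0 set to 3 UMIs over all its cells. For the 27 nonmyelinating Schwann cells, with 57581 UMIs in all, the same bound was only 2.00-fold. Against the mean of the other types the adjusted p was 5.63e-16 in edgeR and 0.234 in DESeq2, where the call was lost. A *Hes5* UMI was found in 18.6% of SGC (95% exact interval 16.5 to 20.9, median 4142 UMIs per cell) and in 0.299% of macrophages (median 4120 UMIs). None was found in 1144 fibroblasts, a count that allows up to 0.262% of cells with a UMI. With each cell thinned to 1000 UMIs the share in SGC was 6.09%. Intervals and limits cover counting error only.

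*Hes5* and *Hey2* were the target genes whose highest level was in SGC, and the sequences before their start sites are printed to show the letters they share. The RefSeq promoter table (build GRCm38.p6, 250 bases before to 50 after a start) held 7 of the 10 members, and *Hes1*, *Hey1* and *Heyl* were not analysed here. The motif GTGGGAA, the core that RBPJ (the DNA-binding partner of cleaved Notch) is known to bind, and its reverse complement TTCCCAC are in capitals. The first 2 lines give the 250 bases before the start, 5′ to 3′ on the strand of the gene, and the third gives the 23 bases around the start of *Hey2*.
*Hes5*, chr4:154960673-154960922, + strand: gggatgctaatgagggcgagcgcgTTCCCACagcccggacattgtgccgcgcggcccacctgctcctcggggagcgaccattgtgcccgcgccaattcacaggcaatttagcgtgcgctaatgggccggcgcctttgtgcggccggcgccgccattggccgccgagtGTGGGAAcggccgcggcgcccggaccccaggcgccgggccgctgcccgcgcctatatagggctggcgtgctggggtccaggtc
*Hey2*, chr10:30842784-30843033, - strand: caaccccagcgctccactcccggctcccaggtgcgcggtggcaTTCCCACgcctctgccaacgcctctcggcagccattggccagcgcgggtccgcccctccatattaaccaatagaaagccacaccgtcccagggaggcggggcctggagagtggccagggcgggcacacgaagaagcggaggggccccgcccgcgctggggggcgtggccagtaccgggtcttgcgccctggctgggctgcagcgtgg
*Hey2* at the start, chr10:30842773-30842795, - strand: gctgcagcGTGGGAAagaacctc
Each promoter held 2 matches, 1 on each strand. In *Hes5* they covered bases -226 to -220 and -83 to -77 relative to the start, and in *Hey2* bases -207 to -201 and -4 to 3. Of 32851 promoter entries of the same length, 6.38% held at least 1 match on either strand and 0.256% (84 entries) held 2 or more. The promoters of *Notch1*, *Notch2*, *Notch3*, *Jag1* and *Dll4* held none of these letters. A match is a description of the sequence, and binding was not measured.

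*Hey2*, a Hey-family repressor known from the heart and arteries (chr10:30832359-30842801), was at 95.7 and 222 CPM in SGC of the control libraries and at 126 and 196 CPM in those of the injury libraries. The libraries numbered 1 were below those numbered 2 in both conditions. The mean over the 4 libraries was 160 ± 58.8 CPM (SD, n = 4), 3.51 times the mean in smooth muscle cells, the next type, and no library overlapped. Against the mean of the other types its adjusted p was 1.21e-23 (edgeR quasi-likelihood test). SGC were not tested against smooth muscle cells alone. *Hey2* was detected in 47.0% of SGC, the largest share of any member in these cells, against 0.457% of endothelial cells of similar depth (median 4320 UMIs). Thinned to 1000 UMIs, the shares were 15.1% and 0%.

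*Hey1* (chr3:8663359-8667256), which pairs with other Hey and Hes proteins on DNA, was at 54.7 and 73.3 CPM in SGC of the control libraries and at 49.1 and 60.5 CPM in those of the injury libraries. It was shared with endothelial cells, where it was at 67.5, 89.9, 97.8 and 91.9 CPM in the same order. The endothelial and SGC ranges overlapped, and both lay above every other type. Each was called against the mean of the others (adjusted p = 2.47e-11 in SGC and 4.05e-10 in endothelial cells, edgeR). *Heyl* (chr4:123233556-123249875), the Hey-family member known from vascular smooth muscle, was at 54.7, 60.4, 28.1 and 48.6 CPM in SGC. All 4 values lay above the 18.4 CPM of the highest fibroblast library and below the 80.2 CPM of the lowest smooth muscle library.

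*Notch1*, the receptor (chr2:26457903-26516663), was at 82.0, 66.6, 98.6 and 59.8 CPM in SGC and at 94.5, 52.0, 43.5 and 53.8 CPM in endothelial cells. These ranges overlapped, and both types were called higher (adjusted p = 1.50e-14 and 6.77e-05, edgeR). The endothelial call was lost with a looser gate (log2 fold 1.93), with RLE size factors (1.95) and with DESeq2 (1.61), each under the fold limit. *Jag1*, a ligand bound to the membrane (chr2:137081456-137116644), was at 88.9, 78.5, 51.5 and 57.5 CPM in SGC (adjusted p = 5.65e-10). Its mean of 69.1 ± 17.5 CPM (SD, n = 4) lay 2.36 times above that of endothelial cells, with overlapping ranges. *Dll4* had 0 UMIs in 1231 SGC, which allows up to 0.244% of cells with a UMI. SGC thus held a UMI of a receptor among the members in 34.1% of cells, of a ligand in 19.0% and of a target in 72.2%, and 110 cells (8.94%) held both a receptor and a ligand. The share with both was not set against the share that independent detection would give, and cells were not brought to equal depth.

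*Hes5* was unevenly spread over SGC. The 229 SGC with a *Hes5* UMI held 2.51 UMIs each on average, and 69 cells with 3 or more held 64.0% of all *Hes5* UMIs in SGC, with up to 22 UMIs in 1 cell. For *Hey1* and *Notch1* in the same cells the corresponding shares were 8.08% and 7.94%, with averages of 1.18 and 1.24 UMIs per positive cell. *Hey2* was intermediate, with 34.3% of its UMIs in such cells. The share of SGC with a *Hes5* UMI followed the replicate number rather than the condition. It was 6.38% (3 cells) and 8.90% (47 cells) in control and injury replicate 1, and 29.1% (118 cells) and 24.3% (61 cells) in control and injury replicate 2. The median depth of SGC moved with it, at 2775 and 3361 UMIs in the replicates numbered 1 and 4334 and 4964 UMIs in those numbered 2, whereas the CPM of *Hes5* overlapped between the numbers. With each cell thinned to 2000 UMIs, an alternative chosen after seeing the data, the shares were 3.23% and 4.87% in control and injury replicate 1 (1 of 31 and 22 of 452 cells) and 14.8% and 12.0% in control and injury replicate 2. The difference between the replicate numbers was thus also seen at equal depth.

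The SGC with a *Hes5* UMI were described against those without in the 3 libraries with at least 10 such cells (control replicate 2 and both injury replicates). The division rests on a measured value of these cells, so the values are given without a test. *Nrarp*, a Notch target that feeds back on the receptor complex, was at 352, 347 and 371 CPM in cells with *Hes5* and at 215, 88.7 and 171 CPM in cells without. *Lfng*, which adds sugars to Notch receptors, was at 54.2, 42.6 and 41.5 CPM with and at 27.1, 17.8 and 26.0 CPM without. Both were higher in every library compared, 2.42-fold for *Nrarp* and 2.16-fold for *Lfng* over the cells pooled from all 4 libraries. Among the members, *Hey2* (230 against 159 CPM pooled), *Jag1* (86.5 against 56.3 CPM) and *Notch1* (94.1 against 72.4 CPM) were each higher in the 3 libraries. For *Hey2* the libraries differed, at 226, 223 and 252 CPM with and 219, 109 and 177 CPM without, so control replicate 2 was nearly equal. The pooled values mix libraries that differ in their share of cells with *Hes5*. *Heyl* was also higher in the 3 (62.0 against 39.9 CPM), and *Hes1* in 2 of them (130 against 106 CPM). *Hey1* stood at 61.2 CPM with and 60.3 CPM without *Hes5*, lower in 2 of the 3 libraries. Of 36 other pathway genes with at least 50 UMIs in SGC, 8 were higher in all 3 libraries and 8 lower. Cells with *Hes5* were deeper (medians of 5044, 7014 and 5385 UMIs against 4118, 3221 and 4830). They also carried more of the 12 SGC gate markers (24610 against 16680 CPM pooled) and less of the myelinating Schwann markers (411 against 559 CPM). With each cell thinned to 2000 UMIs before the division, which left 113 cells with *Hes5* among 1139, the ratios were 2.68 for *Nrarp*, 2.88 for *Lfng*, 1.54 for the SGC markers, 1.73 for *Jag1*, 1.15 for *Notch1* and 0.978 for *Hey1*. Thinned *Hey2* stood at 248 against 165 CPM pooled, and at 233 against 222 CPM in control replicate 2. After thinning *Heyl* was higher in 1 of the 3 libraries (ratio 1.28), and *Hes1* was lower with *Hes5* in all 3 (ratio 0.734), the reverse of its unthinned ratio. The part of the SGC markers and of the Schwann markers in the other differences was not tested.

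**Figure D2:**
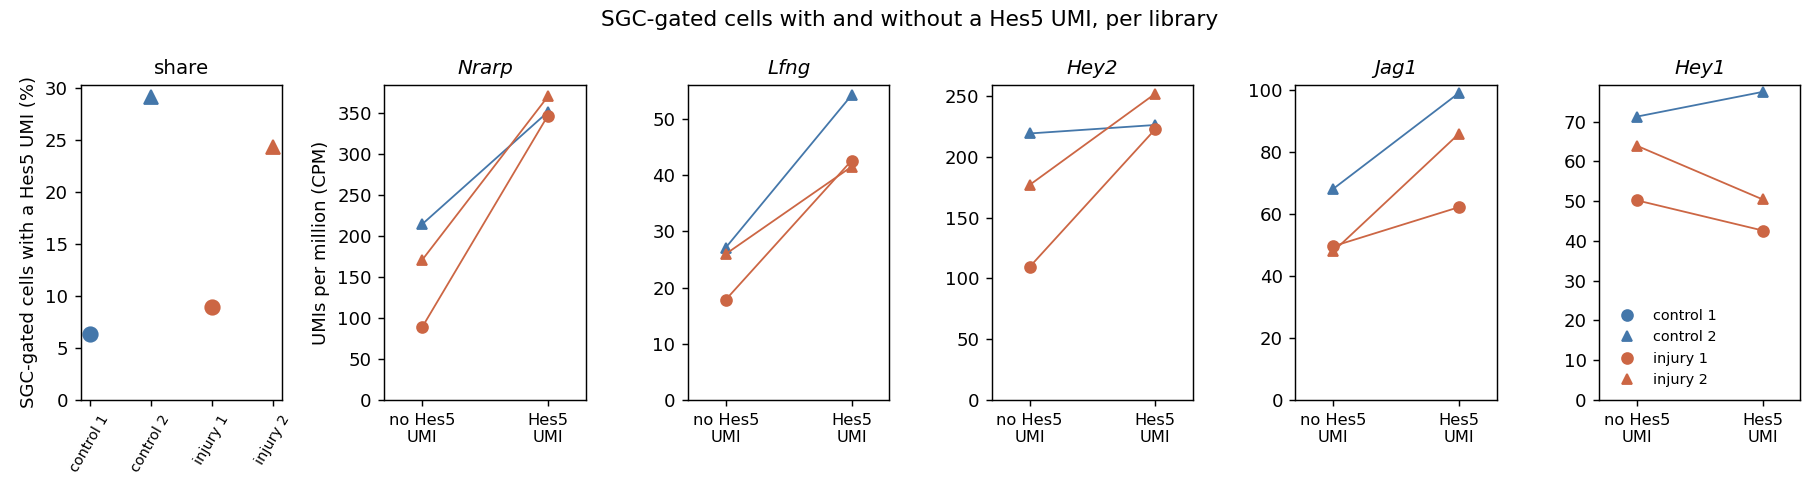
Left panel, share of SGC with a *Hes5* UMI (percent) in each library. Other panels, CPM of *Nrarp*, *Lfng*, *Hey2*, *Jag1* and *Hey1* in SGC without and with a *Hes5* UMI, with a line per library for the 3 libraries with at least 10 such cells. *Nrarp* and *Lfng* rise in each line, and *Hey1* is lower with *Hes5* in 2 of 3.

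SGC were then set against myelinating Schwann cells, the only other gated glia with at least 10 cells in every library, to ask which members separate them. Within the fit across types, 6 of 10 members were higher in SGC, where 6.05% of all genes were called, and 0 were lower (by adjusted p alone 2 were, *Notch2* and *Hes1*, and DESeq2 called 0 lower). *Hes5* and *Heyl* had no UMI in 254 myelinating Schwann cells, so that their SGC level was at least 24.0-fold and 10.4-fold higher (adjusted p = 5.28e-08 and 2.45e-06 in edgeR, but 0.512 for *Hes5* in DESeq2). *Hey2* had 2 UMIs there and 969 in SGC, a ratio of CPM of 60.6 (95% counting interval 16.7 to 501). The log2 differences were 3.29 ± 0.43 (SE) for *Notch1*, 2.73 ± 0.50 for *Jag1* and 2.52 ± 0.55 for *Hey1*, with adjusted p between 4.09e-08 and 0.000393 (edgeR). Without control replicate 2, *Hey1* fell under the fold limit (1.94). *Notch2* went the other way. Nonmyelinating Schwann cells, with 57581 UMIs in 27 cells, were not tested against SGC as a pair. *Notch1* had 5 UMIs in them, at 86.8 CPM pooled against 77.5 CPM in SGC. The ratio to SGC was 1.12 (95% counting interval 0.362 to 2.63). *Jag1* had 1 UMI in these cells, and *Hes5*, *Hey1*, *Hey2* and *Heyl* had 0.

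*Notch2*, the receptor (chr3:98013527-98150361), was at 164 and 108 CPM in myelinating Schwann cells of the control libraries and at 56.0 and 130 CPM in those of the injury libraries. Its level in SGC was 61.5, 28.4, 22.4 and 19.4 CPM in the same order of libraries, lower in each one. The log2 difference of SGC from myelinating Schwann cells was -1.69 ± 0.29 (SE, adjusted p = 6.82e-06, edgeR), short of the fold limit. *Notch2* was the only member called higher in myelinating Schwann cells (adjusted p = 3.49e-10). Fibroblasts (38.9 ± 13.1 CPM, SD, n = 4), macrophages (36.2 ± 24.3 CPM) and SGC (32.9 ± 19.4 CPM) followed and did not differ beyond their spread. In endothelial cells *Notch2* had 4 UMIs in 2104289 (1.90 CPM) and was called lower (adjusted p = 3.09e-06), a call lost with the stricter gate and without control replicate 1, control replicate 2 or injury replicate 2, with log2 folds of -4.54 to -2.99 without a library. *Hes1* was 0.82 lower in SGC than in myelinating Schwann cells on the log2 scale (SE 0.30, adjusted p = 0.0421). Its direction turned with the replicate number, at 191 CPM in SGC against 382 CPM in control replicate 1 and 79.1 against 289 CPM in injury replicate 1, but 127 against 101 CPM and 133 against 46.6 CPM in the replicates numbered 2.

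The cells around vessels carried *Notch3*, the receptor known for maintaining vascular smooth muscle (chr17:32120820-32166852). It was at 516 and 611 CPM in pericytes of control and injury replicate 1, the only libraries with 10 or more pericytes, and at 332, 569 and 321 CPM in smooth muscle cells of every library but injury replicate 2. Every one of these values was above 300 CPM, and the next type, fibroblasts, was at 2.73, 9.30, 2.24 and 8.78 CPM. The mean in smooth muscle cells was 70.7 times that in fibroblasts, and the calls had adjusted p of 3.91e-24 in pericytes and 4.75e-25 in smooth muscle cells (edgeR). *Notch3* was detected in 64.9% of pericytes (median 2115 UMIs) and 65.0% of smooth muscle cells (median 3254 UMIs), against 0.650% of SGC (median 4142 UMIs), which were deeper.

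*Heyl* was highest in the same cells. It was at 238 and 333 CPM in pericytes and at 89.8, 98.5 and 80.2 CPM in smooth muscle cells, and the ranges did not overlap. The log2 difference of pericytes from smooth muscle cells was 1.69 ± 0.33 (SE, adjusted p = 0.00035, edgeR), under the fold limit. No member was called between these types at the fold limit, where 2.86% of all genes were called higher and 2.58% lower in pericytes. *Heyl* passed by adjusted p alone, 3 members had an unadjusted p under 0.05, and DESeq2 called none. The difference for *Notch3* was 0.62 ± 0.23 (adjusted p = 0.0848). *Hes1*, the most widely expressed target (chr16:30064384-30067796), was at 1695, 1324 and 1199 CPM in smooth muscle cells and at 800.1 and 796 CPM in pericytes, and the difference of -0.93 ± 0.33 did not pass (adjusted p = 0.071). *Hey2* was at 43.0, 65.7 and 27.9 CPM in smooth muscle cells (adjusted p = 2.03e-07) and at 19.8 and 10.9 CPM in pericytes. *Jag1* was at 160, 87.5 and 66.2 CPM in smooth muscle cells (adjusted p = 1.28e-08), and at 185 CPM in pericytes of the control library but 43.6 CPM in those of the injury library. Its pericyte call was lost without control replicate 1 (log2 fold 1.87). Summed markers of the other gate were at 3352 and 1494 CPM (smooth muscle markers in pericytes of control and injury replicate 1), against 21600 and 17560 CPM of their own, with 8 of the 12 smooth muscle markers detected there. Pericyte markers in smooth muscle cells were at 4817, 5023 and 3777 CPM (every library but injury replicate 2), with 12 of 12 detected. The smooth muscle markers of these cells were at 33590, 25820 and 31180 CPM. The part of either list in the pericyte and smooth muscle values was not tested. Of 200 smooth muscle cells 20.0% held both a receptor and a ligand UMI, and 10.7% of 168 pericytes did. A receptor UMI was in 71.5% and a ligand UMI in 25% of the smooth muscle cells, and in 68.5% and 19.1% of the pericytes. The shares with both were not set against those that independent detection would give.

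Endothelial cells, which line the vessels, were the main source of *Dll4*, the ligand that selects tip cells in growing vessels (chr2:119325784-119335962). It was at 67.5, 61.5, 54.3 and 71.1 CPM in the 4 endothelial libraries, a narrow range. Of its 140 UMIs in the kept cells 133 lay in endothelial cells, 5 in cells that passed no gate, 1 in pericytes and 1 in macrophages. The endothelial level was at least 116-fold higher than in SGC and at least 105-fold higher than in fibroblasts, both at 0 UMIs. Against the mean of the other types its adjusted p was 7.52e-09 in edgeR, while DESeq2 gave 0.489. *Dll4* was detected in 24.7% of endothelial cells (95% exact interval 20.7 to 29.0) and in 0.0996% of macrophages, at median depths of 4320 and 4120 UMIs. *Hes1* was at 553, 529, 324 and 553 CPM (adjusted p = 6.48e-07), below smooth muscle cells and pericytes, and DESeq2 put its log2 fold at 1.97, just under the limit. *Hes5* had 0 UMIs in 438 endothelial cells, *Hey2* 2 and *Heyl* 7, so that *Hey1* and *Hes1* were the targets seen there.

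Since Notch genes are known from arteries, endothelial cells were divided by an arterial sub-gate of 6 markers (*Gja4*, *Gja5*, *Efnb2*, *Sox17*, *Bmx* and *Sema3g*) against 6 venous ones. Whether these markers are independent of the pathway, which is known for setting arterial identity, was not tested. The sub-gate held 103 cells (14, 53, 14 and 22 by library) against 335 others. *Hey1* was at 133, 165, 160 and 222 CPM inside the sub-gate and at 34.0, 49.2, 88.0 and 57.2 CPM outside. The ranges did not overlap, and the log2 difference was 1.62 ± 0.25 (SE, adjusted p = 6.71e-05, edgeR with the library as a block). *Hes1* was at 1026, 722, 513 and 665 CPM inside and at 313, 425, 294 and 523 CPM outside, higher in each library (log2 difference 0.82 ± 0.15, adjusted p = 0.000461). *Dll4* was at 107, 84.3, 80.2 and 90.3 CPM inside and 47.6, 49.2, 50.3 and 66.0 CPM outside, also higher in each library, but its difference of 0.71 ± 0.29 did not pass (adjusted p = 0.184). *Notch1* had overlapping values and a difference of 0.23 ± 0.34 (adjusted p = 0.851). *Jag1* was at 93.2, 33.7, 96.2 and 57.5 CPM inside and at 34.0, 10.9, 10.1 and 13.2 CPM outside, and was left out by the filter on low counts. In the fit without that filter its log2 difference was 1.88 ± 0.45 (adjusted p = 0.00254 over 14224 genes). No member reached the fold limit in the filtered fit, where 0.176% of 3401 genes were called higher. By adjusted p alone 2 of 4 members tested passed, and 3 had an unadjusted p under 0.05. Cells inside the sub-gate were deeper in control replicates 1 and 2 and injury replicate 1 (medians of 5097, 5319 and 3922 UMIs against 2522, 4205 and 3021) and not in injury replicate 2 (5121 against 5457), and the part of depth was not tested.

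**Figure D3:**
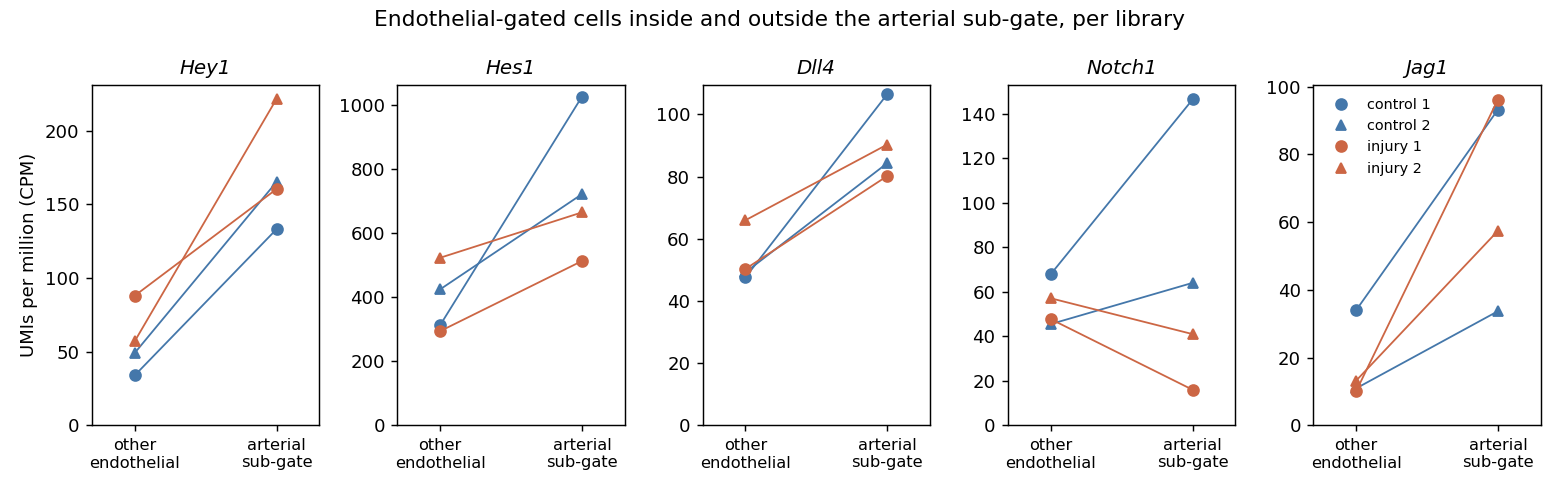
CPM (linear axes from 0) of *Hey1*, *Hes1*, *Dll4*, *Notch1* and *Jag1* in endothelial cells outside and inside the arterial sub-gate, with a line per library, coloured by condition. *Hey1*, *Hes1*, *Dll4* and *Jag1* rise in all 4 lines, and *Notch1* rises in 2.

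Fibroblasts, the matrix-forming cells, held 28.5% of all *Hes1* UMIs of gated cells, the largest share of a type. *Hes1* was at 232, 346, 196 and 294 CPM there and was found in 48.2% of these cells, and it passed by adjusted p but not by fold (log2 difference 1.73 ± 0.43, SE, adjusted p = 0.00139, edgeR). Fibroblasts and macrophages also held 30.2% and 25.9% of the *Notch2* UMIs of gated cells. In fibroblasts *Heyl* was at 4.55, 10.7, 10.5 and 18.4 CPM and was called higher (adjusted p = 0.0021, edgeR), a call lost without injury replicate 1 (log2 fold 1.86) or injury replicate 2 (2.06, with the adjusted p above the threshold). *Notch3* was called there at a mean of 5.76 CPM (adjusted p = 0.0351, edgeR). Its log2 fold of 2.02 dropped to between 0.50 and 0.89 when any 1 of the 4 libraries was left out. Both calls are against a mean of fitted log levels that types near 0 pull down. In CPM, *Heyl* in fibroblasts lay below its means in pericytes (285), smooth muscle cells (89.5) and SGC (48.0). *Notch3* in fibroblasts lay far below its means in pericytes (563) and smooth muscle cells (407). *Jag1* was called lower in macrophages, where 1.39% of all genes were, with 12 UMIs in 1004 cells (adjusted p = 0.00262), a call lost without any 1 of the 4 libraries. In neurons, where 4.23% of genes were called lower, *Notch2* and *Jag1* were lower (adjusted p = 0.0078 and 0.0159), each with 1 UMI in 62 cells. Neurons over 15000 UMIs had been removed by the limits on cells. With no upper limit 269 neurons held *Hes1* at 25.7 CPM, *Hey1* at 15.9 CPM in 29.7% of the cells, *Hey2* at 6.09 CPM, *Hes5* at 3.44 CPM (26 UMIs) and the other members at 0 to 2.65 CPM. *Hes1* had 0 UMIs in 44 erythroid cells and was called lower (adjusted p = 0.000128, against 9.18% of all genes). No member was called in neutrophils or nonmyelinating Schwann cells, which rested on 107 and 27 cells. In them 1 and 0 members had an unadjusted p under 0.05 (edgeR), and DESeq2 was not used. For members near 0 UMIs in these types the lack of a lower call says nothing.

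Of the 50 further genes of the pathway that were looked at (other ligands and receptors, enzymes that cut or modify them, the RBPJ complex, co-repressors and modulators), 24 passed the filter across types. In SGC 2 of 24 were called higher (12.0% of all genes were) and 0 lower. *Nrarp* was at 186 CPM on average in SGC (adjusted p = 2.02e-17, edgeR) and *Lfng* at 25.3 CPM (adjusted p = 1.89e-08). In smooth muscle cells 2 were higher (11.2% of all genes), *Nrarp* (556 CPM) and *Maml2*, a coactivator of the RBPJ complex, and *Adam10*, which makes the outer cut of Notch, was lower (1.26% of all genes). In pericytes 3 were higher (10.4% of all genes), *Nrarp* (243 CPM), *Maml2* and *Dtx3*, a ubiquitin ligase of the Deltex family (432 CPM). In endothelial cells 5 were higher (12.9% of all genes), *Mfng* and *Lfng* (Fringe enzymes, at 141 and 58.1 CPM), *Maml2*, *Ctbp2* (a co-repressor) and *Nrarp*. In macrophages 5 were higher (13.2% of all genes), *Rbpj* itself (79.4 CPM), *Mfng*, *Lfng*, *Adam17* and *Maml2*, beside 0 of the 10 members. Calls not named here were 2 higher in fibroblasts (14.5% of all genes), 2 in myelinating Schwann cells (9.99%) and 1 in neurons (12.5%). Lower were 4 in erythroid cells (9.18%) and 1 in neutrophils (6.64%). Between SGC and myelinating Schwann cells 2 were higher in SGC (6.05%) and 1 lower (4.03%). The share of the 24 genes called higher was below that of all genes in SGC and smooth muscle cells. It was near that of all genes in pericytes and above it in endothelial cells and macrophages, with 5 of 24 in each. The median fitted log2 difference over the 24 genes was 0.45 in SGC, 0.32 in smooth muscle cells, 0.80 in endothelial cells, 0.64 in pericytes and 0.48 in macrophages. Over all genes tested the medians were 0.30, 0.20, 0.24, 0.19 and 0.25 in the same order of types.

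For each member the genes with the most similar pattern of mean log2(CPM + 1) over the 11 types of the fit were found among 7576 genes that were neither gate markers nor filtered out. The correlations rest on 11 points that share libraries and are given as descriptions. *Notch3* was nearest to *Des* (Pearson r = 0.99), *Gucy1b3* and *Ano1*. *Hes5* was nearest to *Slitrk2* (r = 0.955) and *RP24-247B20.1* (0.955), and *Dll4* to *Slco1a4* (0.978). *Hes1* was nearest to *Egr1*, an immediate early gene (r = 0.98), and *Itgb1* (0.969). *Heyl* followed *Rasl12* (0.959), *Hey1* followed *Ptprg* (0.958), *Jag1* followed *Phldb2* (0.935), *Hey2* followed *Kctd1* (0.892), *Notch2* followed *Ogn* (0.888) and *Notch1* followed *Tap2* (0.865).

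Injury was compared with control within the 6 types that had at least 10 cells in every library, to ask whether members changed 3 days after the crush. No member was called in any of the 6 (edgeR, 2 libraries a condition). An unadjusted p under 0.05 was reached by 1 member, *Notch2* in macrophages, and DESeq2 called 0 members and had none at that level. Over all genes the calls were also few, with 0.0231% of 8663 genes higher in fibroblasts (2 genes) and 0.0% in each direction in the other types. DESeq2 called 8 genes higher and 1 lower in fibroblasts, 4 higher and 7 lower in macrophages and 1 higher in SGC. With the replicate number as a block the counts were 12 and 5 in fibroblasts, 46 and 41 in macrophages and 6 and 0 in SGC. They were 0 and 2 in endothelial cells and 1 and 5 in myelinating Schwann cells. No member was among them, and under the block 1 member each in SGC, fibroblasts, macrophages and myelinating Schwann cells had an unadjusted p under 0.05. At that level under the block were 319 of 9001 genes in SGC and 567 of 8663 in fibroblasts. In macrophages 1026 of 6906 genes were, and in myelinating Schwann cells 197 of 2727. The folds of injury given in the next paragraphs are from the fit without the block.

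In SGC 8 members were tested, and 7 of the 8 had a negative fold, with a median log2 fold of -0.44 against 0.01 over all 9001 genes. *Hes5* was at 109 and 136 CPM in control and at 73.9 and 105 CPM after injury. With all UMIs used, the control values lay above the injury values, and the log2 fold was -0.46 ± 0.28 (SE, adjusted p = 1, 95% interval -1.10 to 0.18, edgeR). *Jag1*, the ligand, was at 88.9 and 78.5 CPM in control and at 51.5 and 57.5 CPM after injury, also without overlap (-0.53 ± 0.25, unadjusted p = 0.0681, adjusted p = 1). *Heyl* went from 54.7 and 60.4 to 28.1 and 48.6 CPM (-0.60 ± 0.34) and *Notch2* from 61.5 and 28.4 to 22.4 and 19.4 CPM (-0.69 ± 0.39), neither passing the test. The SGC of control replicate 1 held 146260 UMIs in 47 cells, so its values rest on few UMIs of each member. For *Hes5* these were 16 UMIs in 3 cells. Thinned to 2000 UMIs per cell, *Hes5* was at 48.4 and 108.6 CPM in control and at 54.2 and 109.6 CPM after injury. The thinned ranges overlapped, and control replicate 1 then had 1 cell with *Hes5* among 31. With 2 libraries against 2, ranges without overlap arise with a probability of 0.33 where nothing differs. How many of all genes showed no overlap was not counted. *Hey2* (-0.08 ± 0.39), *Hes1* (-0.42 ± 0.32) and *Hey1* (-0.28 ± 0.29) had overlapping values. *Notch1* was the member with a positive fold (0.23 ± 0.31). The sign of *Hey2*, *Hey1* and *Notch1* turned when 1 library was left out. In all 8 the 95% interval, derived from the fold and the test statistic, lay within a log2 fold of -1.57 to 0.93. It did not include the fold limit of 2 in either direction, but it does not rest on an error given by the model. Of 36 other pathway genes tested in SGC, 0 were called and 0 had an unadjusted p under 0.05 (edgeR). Summed markers of some other types within SGC differed between the conditions. Smooth muscle markers were at 34.2 and 44.4 CPM in control and 12.4 and 21.7 CPM after injury, with 8 of 12 detected, and endothelial markers at 27.4 and 26.3 CPM against 14.3 and 17.9 CPM, with 10 of 12 detected, both without overlap. Myelinating Schwann markers overlapped, at 520 and 455 CPM against 632 and 454 CPM. The part of these markers in the folds of *Jag1*, *Heyl* and the other members was not tested. In these summed libraries fewer cells with a gene and less RNA per cell cannot be told apart.

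In endothelial cells 5 members were tested. *Dll4* had a log2 fold of 0.07 ± 0.31, *Hey1* 0.31 ± 0.29, *Hes1* -0.22 ± 0.27, *Jag1* -0.33 ± 0.57 and *Notch1* -0.38 ± 0.37, all with an adjusted p of 0.9997 (edgeR). The signs of *Dll4*, *Hes1*, *Jag1* and *Notch1* turned when 1 library was left out. In macrophages *Notch2* was at 72.6 and 21.1 CPM in control and 26.6 and 24.6 CPM after injury, so that its fold of -1.21 ± 0.47 (unadjusted p = 0.0345, adjusted p = 0.499) had control replicate 1 alone well above the other libraries. In fibroblasts the 5 members tested lay between -0.29 (*Notch2*) and 0.92 (*Heyl*, SE 0.52), and in myelinating Schwann cells *Notch2* had a fold of -0.70 ± 0.49. The effect in SGC was tested against that in endothelial cells as an interaction of type and condition. That fit had no term for the library, so SGC and endothelial sums of the same library were treated as independent. The difference of the log2 folds was 0.56 ± 0.50 (SE) for *Notch1*, -0.62 ± 0.41 for *Hey1*, -0.24 ± 0.58 for *Jag1* and -0.25 ± 0.45 for *Hes1*, each with an adjusted p of 0.9999 (edgeR, 0 members with an unadjusted p under 0.05, where 0.0% of all genes were called in each direction). The other members tested had 0 to 7 UMIs in one of the types, so that the test says nothing about them.

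**Figure D4:**
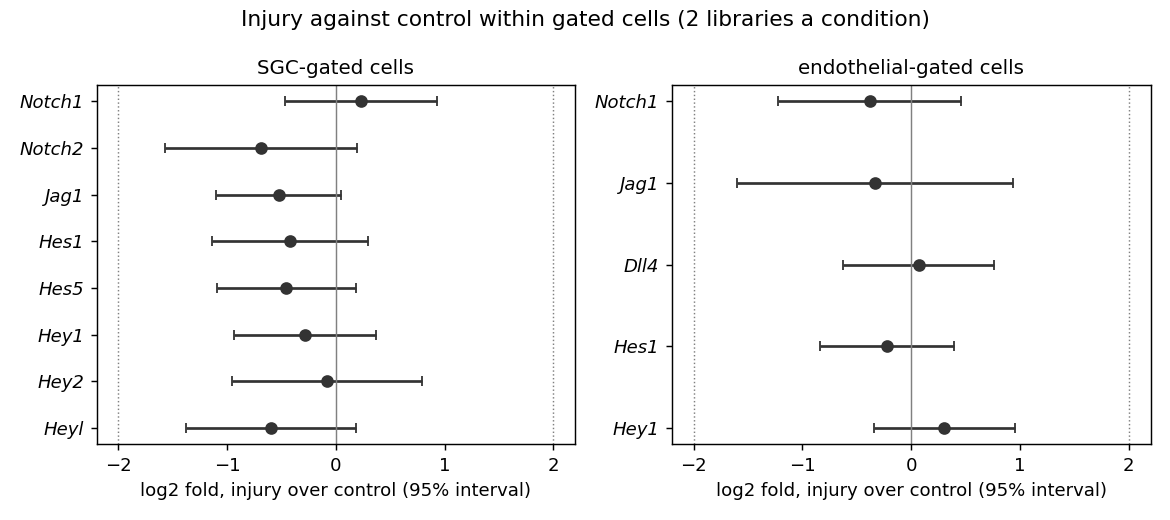
Log2 fold of injury over control with its 95% interval for the members tested in SGC (left) and endothelial cells (right), from 2 libraries a condition. The intervals are derived from the fold and the test statistic. Every interval includes 0, the solid line, which restates that no unadjusted p was under 0.05. None reaches the fold limit of 2 marked by dotted lines.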

How the data were processed

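Single cell suspensions of dissociated DRG were captured with 10x Genomics 3′ chemistry. The authors deposited raw UMI counts per gene and barcode for 4 libraries, for which the submitters' processing notes name Cell Ranger, Partek and mm10. The files hold barcodes outside the cell limits of the methods and no cell type names. UMIs are counted by 3′ tag, so levels are not divided by gene length, and CPM were not compared between genes. Shares of cells with a UMI and the spread of UMIs are set side by side for some genes, as descriptions only. Depth was 5585909 to 11210875 UMIs per library. The methods describe separate experiments, which the labels do not name. The p-values of injury within a type rest on the spread between libraries. Those across types rest on the spread of library-type sums in a fit blocked by library. The fit of the interaction of type and condition was not blocked by library.

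Cells were kept by the limits of the methods and gated on 14 lists of 12 markers (at least 4 with a UMI and a lead of 3 over every other list), and 1 nonmyelinating Schwann marker was absent from the gene lists. Of 4805 gated cells, 655 lay at the limit, and 463 ungated cells were 1 marker short. Scrublet marked 37 of all 6975 barcodes, and those among the kept cells were removed only as an alternative. Sums of at least 10 cells were tested with edgeR 4.0.16 (TMM, filterByExpr, quasi-likelihood), with DESeq2 1.42.0 as an alternative, and the scripts were tested on simulated data. Adjusted p-values cover all genes tested in a fit. The SE of an edgeR fold was worked out from the fold and the F statistic of its test, and is not an error given by the model. The intervals of fitted log2 folds are built from that SE, so they include 0 where the unadjusted p is above 0.05. They add no evidence to that p. The 4-fold limit and the 0.05 threshold follow the methods, while the per-cell ANOVA of the study was replaced by sums per library.

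The members and lists were chosen with earlier results of these data known. The genes named are the 10 members in every fit, some called genes of a list of 50 further pathway genes and the 3 genes most like each member, of which some are given. Of the 50, called genes are named for SGC, smooth muscle cells, pericytes, endothelial cells and macrophages only. Alternatives were looser and stricter gates, Leiden clusters (scanpy 1.11.5), no upper limit on cells, no low-count filter, RLE size factors, no minimum fold, removal of Scrublet doublets, each library left out, a replicate block, a stricter arterial sub-gate and thinned cells. The labels number only 1 library per condition, and whether libraries of the same number share a batch is not given in the sources used here, so the block is an alternative and not the main fit. Cells of several mice were pooled in each batch, so n counts pools. Gene positions are from GENCODE M21 (GRCm38, the build mm10), and 5 members (*Notch1*, *Notch2*, *Notch3*, *Dll4* and *Hes5*) overlap another annotated gene. Whether counting used strand is not given in the sources used here.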

Additional observations from a re-analysis of the deposited data

How the results depend on the processing

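Of 30 calls of a member in a type or pair that were put through the alternatives, 19 were kept under all 13 and none changed direction. The calls in neurons and erythroid cells were not put through them. The setting with no minimum fold uses the main fit and cannot lose a call. The number of members called higher in fibroblasts, 2 in the report, was 1 with the looser and the stricter gate, with no upper limit on cells and with no low-count filter, and 0 with Leiden clusters and DESeq2. The 1 member called lower in macrophages became 0 with both other gates and Leiden clusters and 3 with DESeq2. The 1 called lower in endothelial cells became 0 with the stricter gate. DESeq2 called 1 member higher in endothelial cells in place of 4, and 1 lower in SGC and in myelinating Schwann cells in place of 0. With no minimum fold, 1 member was called higher in macrophages, 2 in myelinating Schwann cells, 1 in pericytes against smooth muscle cells and 2 in the arterial sub-gate, and 2 were lower in SGC than in myelinating Schwann cells. The stricter arterial sub-gate called 1 member higher and turned *Notch1* to -0.20. The injury fold of *Hey2* in SGC was 0.020 with Leiden clusters and 0.050 with the replicate block. The cause was not tested in any of these.

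Leaving out 1 library gave 0 to 1 called higher in fibroblasts, 0 to 1 lower in endothelial cells, 0 lower in macrophages, 0 to 1 higher in macrophages, in pericytes against smooth muscle cells and in the arterial sub-gate. Log2 folds after injury ranged from -0.47 to 0.92 for *Hey2*, -0.43 to 0.17 for *Hey1* and -0.19 to 0.53 for *Notch1* in SGC, and in endothelial cells from -0.85 to 0.0037 for *Notch1*, -1.17 to 0.32 for *Jag1*, -0.063 to 0.20 for *Dll4* and -0.57 to 0.079 for *Hes1*. *Notch1* in the arterial sub-gate ranged from -0.036 to 0.43. The SGC share difference ranged from -7.43 to 19.2 points without a library and from 4.59 to 7.23 points over gates, clusters and cell limits, alternatives chosen after seeing the data, as were the arterial sums of 3 or more cells and the thinning to 2000 UMIs. Depth limits detection per cell. In SGC a *Hey2* UMI was found in 47.0% of cells, and in 15.1% after thinning to 1000 UMIs.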
